A study of Homo sapiens with 9 samples.

Results

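The transcripts described here come from 58 genes of the long arm of human chromosome 3 (3q) that had been listed as higher in the carcinoma line MIII and the metastatic line MIV than in the carcinoma in situ line MII of the MCF-10A breast epithelial series. The list held 60 gene symbols, and each gene was represented by the probe set with the highest mean signal over the 9 arrays. For 58 symbols the array annotation listed a probe set for that gene alone. The other 2 symbols, PIK3CA and SENP2, had no such probe set listed under them and were not analysed here. All 58 genes passed the filter on low signals, so they are 58 of the 370 tested genes of 3q and 58 of the 12594 tested genes of the whole array. The genes had been chosen by their changes in MIII and MIV against MII on these same arrays, so those changes are given as a description, without p-values.

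MCF-10A is an immortalised, non-tumorigenic human breast epithelial line, and the derivatives studied here descend from MCF-10A cells carrying an activated HRAS gene. MII was the line MCF-10AT1Kcl2 (carcinoma in situ), MIII was MCF-10A1h (carcinoma) and MIV was MCF-10A1a (metastatic carcinoma), with 3 Affymetrix arrays of total RNA per line. All lines grew in the same DMEM/F12 medium with horse serum, antibiotics, insulin, cholera toxin, epidermal growth factor and a hydrocortisone supplement. The series looked for genes lost in the metastatic line. Each stage is represented by a single cell line, so a difference between stages and a difference between lines cannot be told apart. Arrays of one line are labelled as biological replicates, but separate cultures are not mentioned, so errors and p-values cover the spread between arrays.

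In tumours, chromosome arms are often gained or lost whole, and genes on a gained arm tend to show modestly higher transcript levels together, each by a similar proportion. Gain of 3q is among the common chromosome changes of carcinomas, squamous carcinomas above all, and the arm carries genes for signalling kinases, cell division, RNA handling and protein secretion. DNA copy number was not analysed here, and its part in the values below was not tested.

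The genes lay along nearly the whole arm, from place 15 to place 358 among the 370 tested genes in reference order. Promoter sequence was examined because genes of many unrelated functions were listed together. RefSeq promoter entries (GRCh38.p14, 250 bases before to 50 bases after the start) matched 51 of the 58 genes, and 7 had no entry. The sequences below are the 250 bases before the start of HLTF, PSMD2 and BBX, the 3 genes with the largest values of the smaller of the changes in MIII and in MIV against MII. Each is written 5′ to 3′ along the gene's strand, with GC boxes (GGGCGG or its reverse complement CCGCCC) in capitals. HLTF lies at chr3:149086534-149086783 on the minus strand, PSMD2 at chr3:184298991-184299240 on the plus strand, and BBX at chr3:107522712-107522961 on the plus strand.
HLTF: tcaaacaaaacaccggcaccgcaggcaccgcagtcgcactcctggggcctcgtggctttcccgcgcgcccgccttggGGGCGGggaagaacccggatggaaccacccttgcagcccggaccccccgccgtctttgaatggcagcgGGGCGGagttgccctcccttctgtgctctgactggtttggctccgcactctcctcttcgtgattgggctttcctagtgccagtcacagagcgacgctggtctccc
PSMD2: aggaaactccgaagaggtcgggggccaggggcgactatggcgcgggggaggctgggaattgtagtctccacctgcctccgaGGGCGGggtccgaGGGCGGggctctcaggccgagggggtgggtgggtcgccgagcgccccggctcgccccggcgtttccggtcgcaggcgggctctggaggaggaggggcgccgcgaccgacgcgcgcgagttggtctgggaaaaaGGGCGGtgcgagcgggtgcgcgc
BBX: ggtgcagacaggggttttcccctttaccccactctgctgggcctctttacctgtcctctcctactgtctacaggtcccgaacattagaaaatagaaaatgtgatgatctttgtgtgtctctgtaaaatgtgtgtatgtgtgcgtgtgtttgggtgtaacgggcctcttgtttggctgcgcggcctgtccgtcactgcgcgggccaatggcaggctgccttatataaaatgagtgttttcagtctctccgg
The stretches shown hold 2 GC boxes for HLTF, 3 for PSMD2 and 0 for BBX. Over the 300 bases of each entry and on both strands, the GC box GGGCGG was present in 40 of 51 promoters (78.4%), against 44.6% of the 27305 promoters in the table. The motif CCAAT was present in 19 (37.3%, against 35.7%), CCGGAAG in 9 (17.6%, against 10.7%), CACGTG in 5 (9.8%, against 7.4%) and TATAAA in 2 (3.9%, against 12%). The promoters held a median of 27 CG dinucleotides (4 to 52), against a median of 14 in the table. CG-rich promoters are typical of genes expressed in most cell types, and a match of letters is a description of the window, not of a binding site.

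Most of the genes were higher by a modest amount in both lines. Signals are the linear MAS5 values, and a change is the difference between lines in mean log2(signal + 18.3), given ± its limma standard error over 3 arrays per line; the added offset makes changes of dim genes smaller. Against MII, the median log2 change was 0.35 in MIII (1.28-fold, interquartile range 0.23 to 0.52) and 0.46 in MIV (1.37-fold, interquartile range 0.32 to 0.63), with a median standard error of 0.07 per gene (0.04 to 0.26). In MIII, 52 of 58 genes lay above 0 (89.7%), and in MIV 56 of 58 did (96.6%). At a Benjamini-Hochberg adjusted p under 0.05 over all tested genes, limma called 45 of the 58 higher and 2 lower (ALCAM and ATP6V1A) in MIII, where 22.9% of all tested genes were called higher and 24.3% lower. In MIV it called 49 higher and 1 lower (TFRC), where the background was 20.0% higher and 22.2% lower. These counts, and the calls against MII in the gene groups below, follow from the way the genes were listed and carry no weight as support. The same background applies there. A call of at least 2-fold higher was reached by 1 gene in MIII (SKIL) and by 0 in MIV, where the background was 6.17% and 2.96%. A call of at least 2-fold lower was reached by 0 genes in MIII and 0 in MIV, where the background was 5.55% and 5.18%. The median over all tested genes was -0.02 in MIII and -0.03 in MIV.

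**Figure D1:**
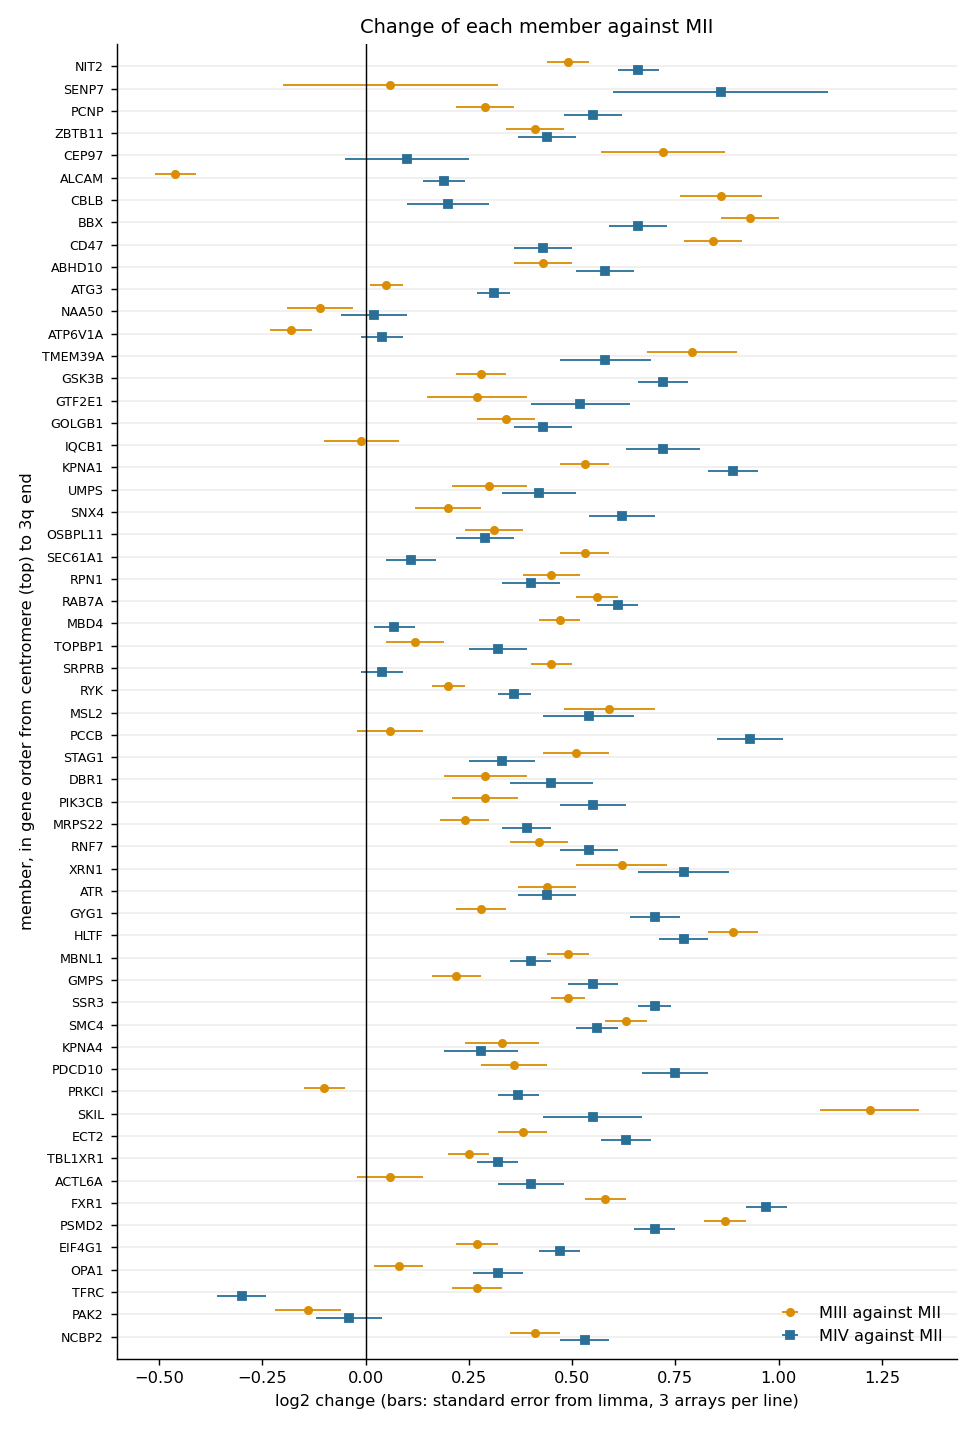
Log2 change of each of the 58 genes against MII (horizontal axis) in gene order from the centromere to the end of 3q, with circles for MIII, squares for MIV and bars for the limma standard error (3 arrays per line). Most symbols lie to the right of 0, with medians of 0.35 for MIII and 0.46 for MIV, and ALCAM in MIII (-0.46) and TFRC in MIV (-0.30) lie to the left.

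The listing used these same arrays, so the values against MII on each array follow from it and are a description. The median of the 58 genes against the MII mean was 0.32, 0.34 and 0.40 on the 3 MIII arrays and 0.48, 0.49 and 0.50 on the 3 MIV arrays. The MII arrays lay between 0.00 and 0.01, near 0 because they are measured against their own mean. All 3 MIII arrays exceeded all 3 MII arrays for 47 genes and lay below them for 4, with a background of 26.7% and 28.6%. All 3 MIV arrays exceeded the MII arrays for 49 genes and lay below them for 1 (background 23.7% and 27.1%). They exceeded the MIII arrays for 27 genes and lay below them for 12 (background 28.4% and 30.4%). The per-array median over all tested genes stayed between -0.02 and 0.01 on the 9 arrays. The brighter 29 genes had medians of 0.33 in MIII and 0.40 in MIV, and the dimmer 29 had 0.41 and 0.54. MIV replicate 3 stood apart in its hybridisation controls: the bioB probe sets averaged 2620 there and 823 to 1283 elsewhere (8 arrays). Without it the median in MIV was 0.49 and 48 genes were called higher.

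Against the listing, not all 58 genes were higher in both lines. The call was higher in MIII and in MIV for 39 genes. It was higher in MIII alone for 6 (CEP97, CBLB, SEC61A1, MBD4, SRPRB and TFRC) and in MIV alone for 10 (SENP7, ALCAM, ATG3, GTF2E1, IQCB1, TOPBP1, PCCB, PRKCI, ACTL6A and OPA1). Neither line was called higher for the chosen probe sets of NAA50, ATP6V1A and PAK2, although other probe sets of NAA50 and PAK2 were. The calls depended on the probe set: with all probe sets of a gene averaged, 25 genes were called higher in both lines, 24 of them among the 39. That average takes in every probe set of a gene, including those whose own signals did not pass the filter. Averaging ended the call against MII of 14 genes in MIII, where they had values of 0.05 to 0.48, and of 11 in MIV, with values of -0.23 to 0.33. In both lines these included RAB7A, MBNL1, OSBPL11, TBL1XR1, UMPS, ZBTB11 and TFRC. Of the 30 genes among the 39 that could be tested on probe sets without a cross-hybridisation suffix, 23 were called higher in both lines. The comparison of MIV with MIII is the one that the listing did not use, although it shares the same arrays. There the median was 0.14 (range -0.67 to 0.87). The limma test called 24 genes higher in MIV, with a background of 25.3%, and 10 lower, with a background of 26.6%. As shares of the 58 genes these are 41.4% and 17.2%. At 2-fold or more, 0 genes were called higher and 0 lower, where the background was 4.95% and 7.79%. Of the 39 genes higher in both lines, 14 were called higher in MIV than in MIII, 4 were called lower, and 21 were not told apart.

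**Figure D2:**
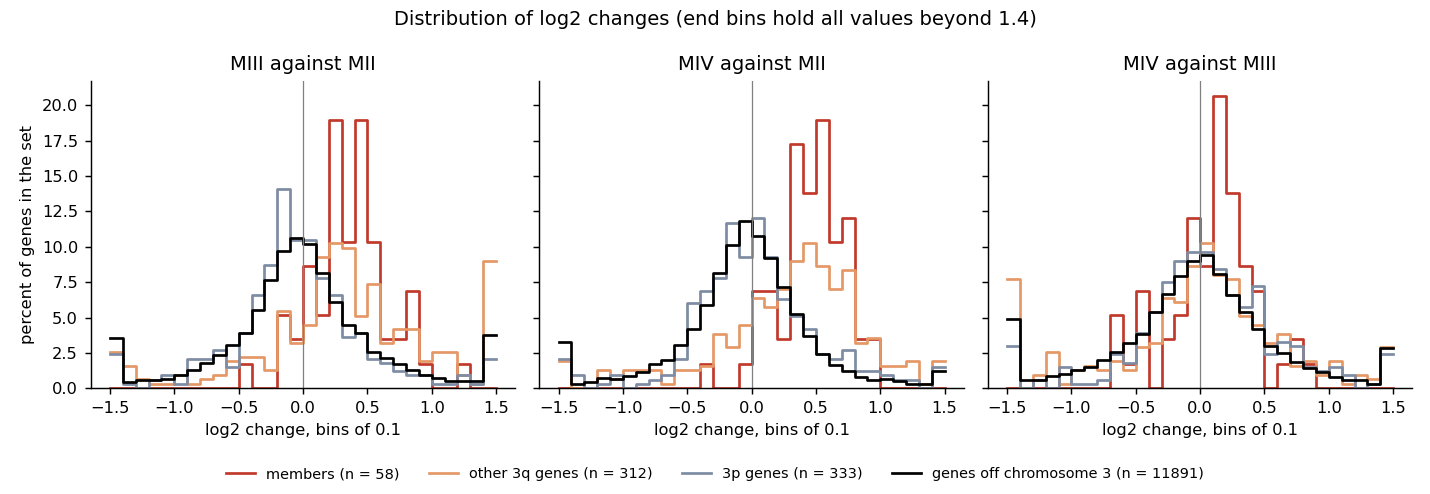
Percent of genes in each bin of log2 change (horizontal axis, bins of 0.1) for the 58 listed genes, the other 312 tested genes of 3q, the 333 tested genes of 3p and the 11891 tested genes off chromosome 3, in the 3 comparisons. Both 3q sets are displaced to the right of 0 against MII, with medians of 0.35 and 0.32 in MIII and 0.46 and 0.39 in MIV, whereas the other sets centre near 0.

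DNA repair and replication genes included the gene with the largest smaller-of-both change. HLTF encodes a DNA translocase that helps cells copy past damaged template. HLTF signals were 1805, 1799 and 1816 in MII, 3110.4, 3494 and 3481 in MIII, and 3210.4, 3026 and 3029 in MIV. Every MIII and MIV array read above every MII array, and the change was 0.89 ± 0.06 in MIII (1.85-fold) and 0.77 ± 0.06 in MIV (1.7-fold). ATR, the kinase that senses stalled replication forks, was higher by 0.44 ± 0.07 in MIII and by 0.44 ± 0.07 in MIV. TOPBP1, an activator of ATR, was higher by 0.32 ± 0.07 in MIV and had a value of 0.12 ± 0.07 in MIII. MBD4, a glycosylase that removes mismatched thymine at CG sites, was higher in MIII by 0.47 ± 0.05 and read 0.07 ± 0.05 in MIV. Between the lines MBD4 was lower in MIV by 0.41 (limma adjusted p = 1.46e-05). TOPBP1 was higher there by 0.19 ± 0.07 (limma adjusted p = 0.0289), a call lost under other normalizations and without single arrays.

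Genes of chromosome structure and division followed with SMC4, the ATPase core of condensin, which compacts chromosomes for mitosis. SMC4 signals were 6482, 5987 and 5999 in MII, 9425, 9384 and 9720.3 in MIII, and 9359, 9314 and 8511 in MIV. The MII arrays lay below all others, with changes of 0.63 ± 0.05 in MIII and 0.56 ± 0.05 in MIV. ECT2 encodes the exchange factor that activates RhoA at the cleavage furrow. ECT2 signals were 3419.6, 3483 and 3368 in MII, 4283, 4304 and 4844 in MIII, and 5551, 5308 and 5083 in MIV. The 3 lines did not overlap for ECT2, and MIV exceeded MIII by 0.25 ± 0.06 (limma adjusted p = 0.00265). Averaging all ECT2 probe sets gave -0.05 for that difference, with a probe set under the signal filter included. The other ECT2 probe set past the filter gave 0.39, which was called. STAG1, a cohesin subunit, was higher by 0.51 ± 0.08 and 0.33 ± 0.08 in MIII and MIV, the latter 0.10 and not called with its probe sets averaged. Its other probe set past the signal filter was called higher in both lines (0.87 and 0.28).

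The other division genes did not follow that course. CEP97 encodes a centriole cap protein that holds back cilium growth. CEP97 signals were 323, 477 and 432 in MII, 595, 619.5 and 842 in MIII, and 420.0, 452 and 441 in MIV. MIII stood above both other lines, which overlapped, and MIV was lower than MIII by 0.61 (SE 0.15, limma adjusted p = 0.00377). With the probe set whose name carries no cross-hybridisation suffix, that value was -0.20 (limma adjusted p = 0.497). That probe set was dim (line means of 137 to 158), and another dim one gave -0.52 (limma adjusted p = 0.0279). NAA50 encodes an N-terminal acetyltransferase subunit needed for sister chromatid cohesion. NAA50 signals were 11654, 12031 and 12946 in MII, 12160.0, 10085 and 11754 in MIII, and 11899.6, 13729 and 11591 in MIV. Its arrays overlapped in all comparisons, with changes of -0.11 ± 0.08 in MIII and 0.02 ± 0.08 in MIV. A dimmer NAA50 probe set was called higher in both lines (0.48 ± 0.15 in each), and another gave -0.19 ± 0.07 in MIII and 0.16 ± 0.07 in MIV.

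The chromatin and transcription genes held 7 members, of which 5 were called higher in MIII and 7 in MIV. BBX encodes an HMG-box protein. BBX signals were 2207, 2350.5 and 2519.9 in MII, 4342, 4542 and 4626 in MIII, and 3682, 3509 and 4022 in MIV. The lines were fully separated, with MIII highest, and the change was 0.93 ± 0.07 in MIII and 0.66 ± 0.07 in MIV. SKIL encodes SnoN, a repressor of TGF-beta signalling through SMAD proteins. SKIL signals were 728, 939.6 and 838 in MII, 1799.8, 2172 and 1910.0 in MIII, and 1031, 1206 and 1474 in MIV. The order of the lines was the same as for BBX, and SKIL in MIII was the single 2-fold change among the 58 genes (1.22 ± 0.12, 2.32-fold). MIV was lower than MIII by 0.67 for SKIL (SE 0.12, limma adjusted p = 0.000433) and by 0.27 for BBX (limma adjusted p = 0.00316). With all SKIL probe sets averaged, that difference was -0.26 (limma adjusted p = 0.133) and MIV against MII gave 0.11, which was not called.

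MSL2, a ubiquitin ligase of a histone acetyltransferase complex, was higher by 0.59 ± 0.11 in MIII and 0.54 ± 0.11 in MIV. ZBTB11, a zinc finger protein, was higher by 0.41 ± 0.07 and 0.44 ± 0.07. TBL1XR1, a subunit of the NCoR corepressor, was higher by 0.25 ± 0.05 and 0.32 ± 0.05. GTF2E1, a general transcription factor subunit, gave 0.27 ± 0.12 in MIII and was higher by 0.52 ± 0.12 in MIV. ACTL6A, an actin-related subunit of BAF remodelling complexes, gave 0.06 ± 0.08 in MIII and was higher by 0.40 ± 0.08 in MIV. ACTL6A differed between the carcinoma lines by 0.34 ± 0.08 (limma adjusted p = 0.00219).

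All 6 genes of RNA processing and translation were called higher in both lines. FXR1 encodes an RNA-binding protein related to the fragile X protein. FXR1 signals were 4403, 4385 and 4786 in MII, 6752, 6723 and 6781 in MIII, and 9279.9, 8615 and 8733 in MIV. The lines separated in the order MII, MIII, MIV, with 0.58 ± 0.05 in MIII, 0.97 ± 0.05 in MIV (1.96-fold) and 0.39 ± 0.05 between them (limma adjusted p = 1.61e-05). Other FXR1 probe sets did not all share the last difference, and their average gave 0.16 (limma adjusted p = 0.0633). XRN1 is the cytoplasmic 5′ to 3′ exoribonuclease. XRN1 signals were 680.4, 543 and 598 in MII, 898, 1045 and 879 in MIII, and 1167, 947 and 1022 in MIV. MII was separated from both other lines, which overlapped each other, and the changes were 0.62 ± 0.11 and 0.77 ± 0.11. Averaging the XRN1 probe sets gave 0.31 in MIII, which was not called. Another XRN1 probe set of similar signal was called higher in both lines (0.89 and 1.03), and a dim one gave -0.24 and 0.55, neither called.

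Among the remaining RNA genes, MBNL1, a splicing regulator, was higher by 0.49 ± 0.05 in MIII and 0.40 ± 0.05 in MIV. NCBP2, the small subunit of the nuclear cap-binding complex, was higher by 0.41 ± 0.06 and 0.53 ± 0.06. DBR1, the lariat debranching enzyme, was higher by 0.29 ± 0.10 and 0.45 ± 0.10. EIF4G1, the scaffold of the cap-binding initiation complex, was higher by 0.27 ± 0.05 and 0.47 ± 0.05. EIF4G1 was also higher in MIV than in MIII, by 0.20 ± 0.05 (limma adjusted p = 0.00699).

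Of the 5 SUMO and ubiquitin pathway genes, 4 were called higher in each line. PSMD2 encodes a large non-ATPase subunit of the 19S proteasome regulator. PSMD2 signals were 4793, 4568 and 4628 in MII, 8984, 8219.8 and 8491 in MIII, and 7936, 7543 and 7251 in MIV. All MII arrays lay below the rest, with 0.87 ± 0.05 in MIII (1.83-fold) and 0.70 ± 0.05 in MIV (1.62-fold). MIV was lower than MIII by 0.18 (limma adjusted p = 0.0105), or -0.14 without MIII replicate 1 (limma adjusted p = 0.0518). CBLB encodes a ubiquitin ligase that restrains receptor tyrosine kinase signalling. CBLB signals were 659, 543 and 618 in MII, 1089, 1098 and 1155 in MIII, and 769.9, 617 and 709.9 in MIV. MIII stood clear of both other lines for CBLB, and MIV was lower than MIII by 0.66 (limma adjusted p = 6.47e-05), or -0.30 with all probe sets averaged (limma adjusted p = 0.203).

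SENP7, a SUMO protease, was the dimmest of the genes. SENP7 signals were 78.7, 120.5 and 79.4 in MII, 80.5, 91.1 and 120.0 in MIII, and 262, 154 and 144 in MIV. MII and MIII overlapped, while MIV was above both, with replicate 1 the highest. MIV exceeded MIII by 0.80 ± 0.26 (limma adjusted p = 0.0192), and without MIV replicate 1 the value was 0.55 (limma adjusted p = 0.11). The ubiquitin ligase component RNF7 was higher by 0.42 ± 0.07 in MIII and 0.54 ± 0.07 in MIV. PCNP, a small nuclear protein, was higher by 0.29 ± 0.07 and 0.55 ± 0.07.

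Membrane traffic genes were represented by 7 members. RAB7A is the small GTPase of late endosomes and lysosomes. RAB7A signals were 3808, 3873 and 3884 in MII, 5644, 5518 and 5865 in MIII, and 5806, 6011 and 5916 in MIV. MII lay below both other lines on every array, at 0.56 ± 0.05 and 0.61 ± 0.05, and MIV differed from MIII by 0.06 ± 0.05. With all RAB7A probe sets averaged the changes were 0.28 and 0.33, neither of them called. Another bright RAB7A probe set was called higher in both lines (0.40 and 0.68), and the dim ones past the filter were not called. TMEM39A encodes a membrane protein of the endoplasmic reticulum. TMEM39A signals were 535, 588 and 462 in MII, 817, 913 and 1061 in MIII, and 801, 752 and 826 in MIV. MII was lowest on every array and MIII and MIV overlapped, with 0.79 ± 0.11 in MIII and 0.58 ± 0.11 in MIV. The TMEM39A probe set without a suffix, which was dim (line means of 73.9 to 123), gave 0.62 and 0.17, neither of them called. A brighter TMEM39A probe set was called higher in both lines (0.75 and 0.28), and a further dim one in neither.

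ATP6V1A, the catalytic subunit of the proton pump that acidifies lysosomes, was an exception. ATP6V1A signals were 6328, 6193 and 6783 in MII, 5918, 5404 and 5718 in MIII, and 6701, 6378 and 6723 in MIV. MIII was below MII, with a value of -0.18 ± 0.05, and MIV overlapped MII at 0.04 ± 0.05. MIV was higher than MIII by 0.22 ± 0.05 (limma adjusted p = 0.00342). ATG3, the conjugating enzyme that lipidates LC3 in autophagy, gave 0.05 ± 0.04 in MIII and was higher by 0.31 ± 0.04 in MIV. SNX4, a sorting nexin, gave 0.20 ± 0.08 in MIII, a call lost without single arrays, and was higher by 0.62 ± 0.08 in MIV. Its other probe set gave -0.05 in MIII, not called, and 0.37 in MIV. For the chosen SNX4 probe set MIV exceeded MIII by 0.43 ± 0.08 (limma adjusted p = 0.000314). GOLGB1, a Golgi tether also called giantin, was higher by 0.34 ± 0.07 and 0.43 ± 0.07. OSBPL11, a lipid transfer protein, was higher by 0.31 ± 0.07 and 0.29 ± 0.07.

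The 4 genes of protein entry into the endoplasmic reticulum and N-glycosylation were called higher in MIII, and 2 of them were in MIV. SEC61A1 encodes the pore of the translocon. SEC61A1 signals were 3695, 3235 and 3777 in MII, 5321, 5004 and 5121 in MIII, and 3964, 3902 and 3671 in MIV. MIII exceeded both other lines, which overlapped, and MIV was lower than MIII by 0.42 (limma adjusted p = 6.93e-05). RPN1 encodes ribophorin I, a subunit of oligosaccharyltransferase. RPN1 signals were 4597, 5009.7 and 5271 in MII, 7341, 6133 and 6867 in MIII, and 6461, 7025 and 6179 in MIV. For RPN1 the MII arrays were lowest and MIII overlapped MIV, with 0.45 ± 0.07 and 0.40 ± 0.07. SRPRB, the membrane anchor of the signal recognition particle receptor, was higher in MIII by 0.45 ± 0.05 and read 0.04 ± 0.05 in MIV. SSR3, a subunit of the translocon-associated complex, was higher by 0.49 ± 0.04 and 0.70 ± 0.04 and exceeded MIII in MIV by 0.21 ± 0.04 (limma adjusted p = 0.00069). A dim SSR3 probe set (line means of 126 to 209) gave -0.67 for that last difference and -0.07 for MIV against MII. Among brighter ones, 1 was called higher in each comparison (0.43, 0.65 and 0.21) and another gave 0.14, 0.51 and 0.37, none called.

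Both importin alpha genes, whose products carry proteins with nuclear localisation signals into the nucleus, were called higher in both lines. KPNA1 signals were 1803, 1692 and 1787 in MII, 2399, 2656 and 2609 in MIII, and 3416, 3133 and 3283 in MIV. The lines separated in the order MII, MIII, MIV for KPNA1, at 0.53 ± 0.06 and 0.89 ± 0.06 against MII and 0.36 ± 0.06 between MIV and MIII (limma adjusted p = 0.000209). KPNA4 signals were 5863, 6176 and 4532 in MII, 6608, 7108 and 6925 in MIII, and 6669.7, 6228 and 7068 in MIV. KPNA4 was higher by 0.33 ± 0.09 in MIII and 0.28 ± 0.09 in MIV, and those lines overlapped.

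PIK3CB encodes the p110-beta catalytic subunit of PI3-kinase, which makes the membrane lipid that recruits AKT. PIK3CB signals were 1141, 1313 and 1372 in MII, 1511, 1576 and 1594 in MIII, and 1709, 1886 and 2019.9 in MIV. The MII arrays were lowest and the MIV arrays highest, at 0.29 ± 0.08 in MIII and 0.55 ± 0.08 in MIV. With its probe sets averaged, the MIII value was 0.17 and not called. MIV exceeded MIII by 0.26 ± 0.08 (limma adjusted p = 0.0172), with 0.23 and 0.20 on leaving out MIII replicate 1 and MIV replicate 3 (limma adjusted p = 0.0564 and 0.0827).

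Among the kinases and signalling adaptors, PRKCI encodes an atypical protein kinase C of the epithelial polarity complex. PRKCI signals were 6418, 6621 and 6921 in MII, 6307, 6149 and 6174 in MIII, and 8792, 8212 and 8837 in MIV. MIV was above both other lines on every array, MIII was slightly below MII at -0.10 ± 0.05, and MIV exceeded MIII by 0.47 ± 0.05 (limma adjusted p = 1.94e-06). PAK2 encodes a kinase activated by RAC and CDC42. PAK2 signals were 2291, 2598 and 2494 in MII, 2166, 2277 and 2255 in MIII, and 2129.7, 2605 and 2459 in MIV. The MIV arrays overlapped both other lines for PAK2, with -0.14 ± 0.08 in MIII and -0.04 ± 0.08 in MIV. Its other probe sets disagreed: 2 of them were called higher in both lines (0.57 and 0.42 in MIII, 0.41 and 0.54 in MIV), and another fell by 0.52 in MIII. GSK3B, a kinase of the beta-catenin destruction complex, was higher by 0.28 ± 0.06 and 0.72 ± 0.06, and MIV exceeded MIII by 0.44 ± 0.06 (limma adjusted p = 2.16e-05). PDCD10, an adaptor of germinal centre kinases, was higher by 0.36 ± 0.08 and 0.75 ± 0.08.

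The 4 genes of cell surface proteins pointed in different directions. ALCAM encodes an adhesion molecule of the immunoglobulin family. ALCAM signals were 4492, 4637 and 4663 in MII, 3228, 3259.8 and 3519 in MIII, and 5333, 5181 and 5189 in MIV. The 3 lines did not overlap and MIII was lowest, with -0.46 ± 0.05 in MIII and 0.19 ± 0.05 in MIV. Another bright ALCAM probe set gave -0.55 and 0.05, the latter not called, and a dim one gave -0.18 and 0.96. TFRC encodes the transferrin receptor, through which cells take up iron. TFRC signals were 18279.5, 17352 and 18259.5 in MII, 22149, 20045 and 22753 in MIII, and 15312, 14861 and 13572 in MIV. Here MIII was highest and MIV lowest without overlap, at 0.27 ± 0.06 and -0.30 ± 0.06. Between the carcinoma lines ALCAM was higher in MIV by 0.65 ± 0.05 (limma adjusted p = 1.2e-07) and TFRC was lower by 0.57 (limma adjusted p = 1.59e-06). With all TFRC probe sets averaged, including those under the signal filter, no comparison was called: MIII gave 0.05, MIV gave -0.23, and MIV against MIII gave -0.28 (limma adjusted p = 0.0782). The second bright TFRC probe set was called in each comparison, at 0.39, -0.34 and -0.73. A dimmer one gave 0.04, not called, then -0.45 and -0.49, both called.

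CD47 encodes the surface protein that signals to macrophages not to engulf the cell. CD47 signals were 3395, 3406 and 3435 in MII, 6525, 6037 and 5817 in MIII, and 4541, 5115 and 4192 in MIV. The lines separated with MIII highest, at 0.84 ± 0.07 in MIII and 0.43 ± 0.07 in MIV, and MIV was lower than MIII by 0.41 (limma adjusted p = 0.000179). With all CD47 probe sets averaged, the MIV value against MII was 0.18 and not called. Other CD47 probe sets were mixed there: brighter ones gave 0.34 and 0.79, both called, and dim ones gave 0.30 and -0.38, neither called. RYK, a receptor for Wnt ligands, was higher by 0.20 ± 0.04 and 0.36 ± 0.04.

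All 6 metabolic enzymes were called higher in MIV and 5 in MIII. PCCB encodes a subunit of mitochondrial propionyl-CoA carboxylase. PCCB signals were 2124, 2023 and 1898 in MII, 2287, 2079 and 1928 in MIII, and 4222, 3762 and 3602 in MIV. MII and MIII overlapped and MIV was above both, by 0.93 ± 0.08 against MII and 0.87 ± 0.08 against MIII (limma adjusted p = 4.31e-07). Averaging the PCCB probe sets turned the latter value to -0.04, but the other PCCB probe set did not pass the signal filter. GMPS, which makes GMP, was higher by 0.22 ± 0.06 in MIII and 0.55 ± 0.06 in MIV. UMPS, which completes pyrimidine synthesis, was higher by 0.30 ± 0.09 and 0.42 ± 0.09. In MIII a dim UMPS probe set gave -0.01, and a brighter one gave 0.29, which was called. GYG1, the primer of glycogen synthesis, was higher by 0.28 ± 0.06 and 0.70 ± 0.06. NIT2, an omega-amidase, was higher by 0.49 ± 0.05 and 0.66 ± 0.05. ABHD10, a mitochondrial hydrolase, was higher by 0.43 ± 0.07 and 0.58 ± 0.07.

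IQCB1 encodes nephrocystin-5, a protein of the cilium and centrosome. IQCB1 signals were 614, 599.7 and 527 in MII, 548, 553 and 629.7 in MIII, and 984, 964 and 950.1 in MIV. MII and MIII overlapped at -0.01 ± 0.09, and MIV exceeded MIII by 0.73 ± 0.09 (limma adjusted p = 1.29e-05). OPA1, which fuses inner mitochondrial membranes, gave 0.08 ± 0.06 in MIII and was higher by 0.32 ± 0.06 in MIV. MRPS22, a mitochondrial ribosomal protein, was higher by 0.24 ± 0.06 and 0.39 ± 0.06.

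**Figure D3:**
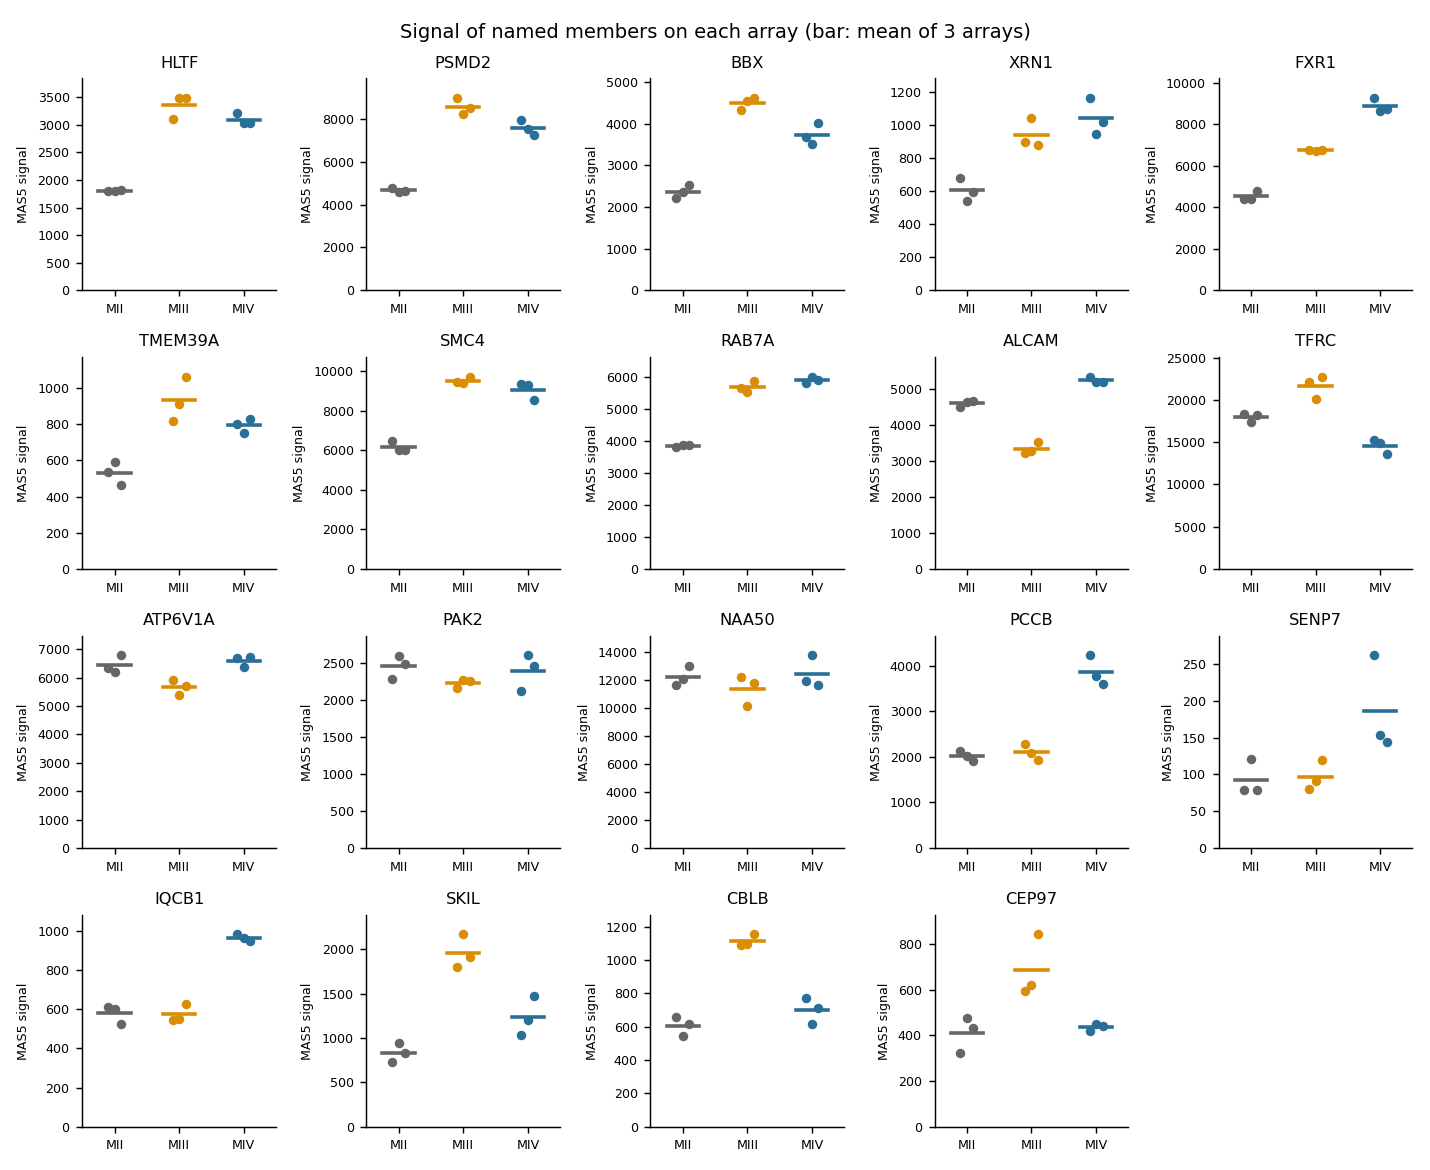
MAS5 signal (vertical axis from 0, scale differing by gene) on each of the 3 arrays of MII, MIII and MIV for the 8 genes with the largest smaller-of-both change, the 5 with the lowest, and the 4 largest rises and falls in MIV against MIII; points are arrays and bars are means of 3. The first 8 panels show MII lowest on all arrays, whereas ALCAM is lowest in MIII, TFRC is lowest in MIV, and PCCB and IQCB1 are high in MIV.

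Most of the genes had more than 1 probe set, which gave a second reading on the same arrays. Together the 58 genes had 185 probe sets, 1 to 7 each, and 104 further ones for 48 genes passed the filter. Of those 104, 86 lay above 0 in MIII (82.7%, median 0.34) and 92 in MIV (88.5%, median 0.38). Where the chosen probe set was itself called against MII, 0 further ones were called in the opposite direction in MIII and 0 in MIV. Where it was not called, 3 further probe sets of NAA50 and PAK2 were called against its sign in MIII, and 2 of PAK2 in MIV. For MIV against MIII the further probe sets had a median of 0.07. There 7 were called against the sign of the chosen one, of which 4, for FXR1, GMPS and SSR3, opposed a call.

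The remaining genes of 3q, which had not been listed, had similar medians and a wider spread. Over 312 such genes the median was 0.32 in MIII and 0.39 in MIV, with 75.3% and 76.6% above 0, beside 0.35 and 0.46 for the listed genes. Calls were 178 higher and 33 lower in MIII (57.1% and 10.6%, background 22.9% and 24.3%). In MIV they were 172 and 28 (55.1% and 9.0%, background 20.0% and 22.2%). In MIV against MIII the median was 0.05, with 94 called higher and 79 lower (30.1% and 25.3%, background 25.3% and 26.6%). At 2-fold or more, 48 were higher and 17 lower in MIII, beside 1 and 0 of the listed genes. The background there was 6.17% and 5.55%. The 333 tested genes of the short arm (3p) had medians of -0.05 and 0.00, and the 11891 tested genes off chromosome 3 had -0.02 and -0.04.

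Many of the listed genes had neighbours with the same displacement. The median of the 4 nearest unlisted tested genes was above 0 for 46 of 58 genes in MIII and for 53 of 58 in MIV, and the median of those medians was 0.26 and 0.39. Some listed genes share the same neighbours, such as MSL2, PCCB and STAG1, so the 58 medians are not separate readings. In consecutive windows of 25 tested genes, listed ones included, all 14 full windows of 3q had a median above 0 against MII. The medians ran from 0.12 to 0.60 in MIII and from 0.06 to 0.56 in MIV. Over the unlisted genes of each window alone, they ran from 0.07 to 0.66 in MIII and from 0.03 to 0.56 in MIV. The lowest of these unlisted medians came from the window KCNAB1 to PPM1L in both lines. With the listed genes included, the lowest window in both ran from C3orf52 to GSK3B (0.12 and 0.06). It contains ATG3, NAA50 and ATP6V1A, which were among the genes with the smallest changes, as well as TMEM39A and GSK3B, which were higher in both lines. A second low window in MIV ran from KCNAB1 to PPM1L (0.09, against 0.23 in MIII). In MIV against MIII the window medians ran from -0.27 to 0.10, and the lowest, from TMEM45A to ABHD10, contains CEP97, CBLB, BBX and CD47, which were lower in MIV than in MIII, together with SENP7, PCNP and ALCAM, which were higher. The 13 windows of 3p ran from -0.28 to 0.13 in MIII and from -0.16 to 0.42 in MIV.

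**Figure D4:**
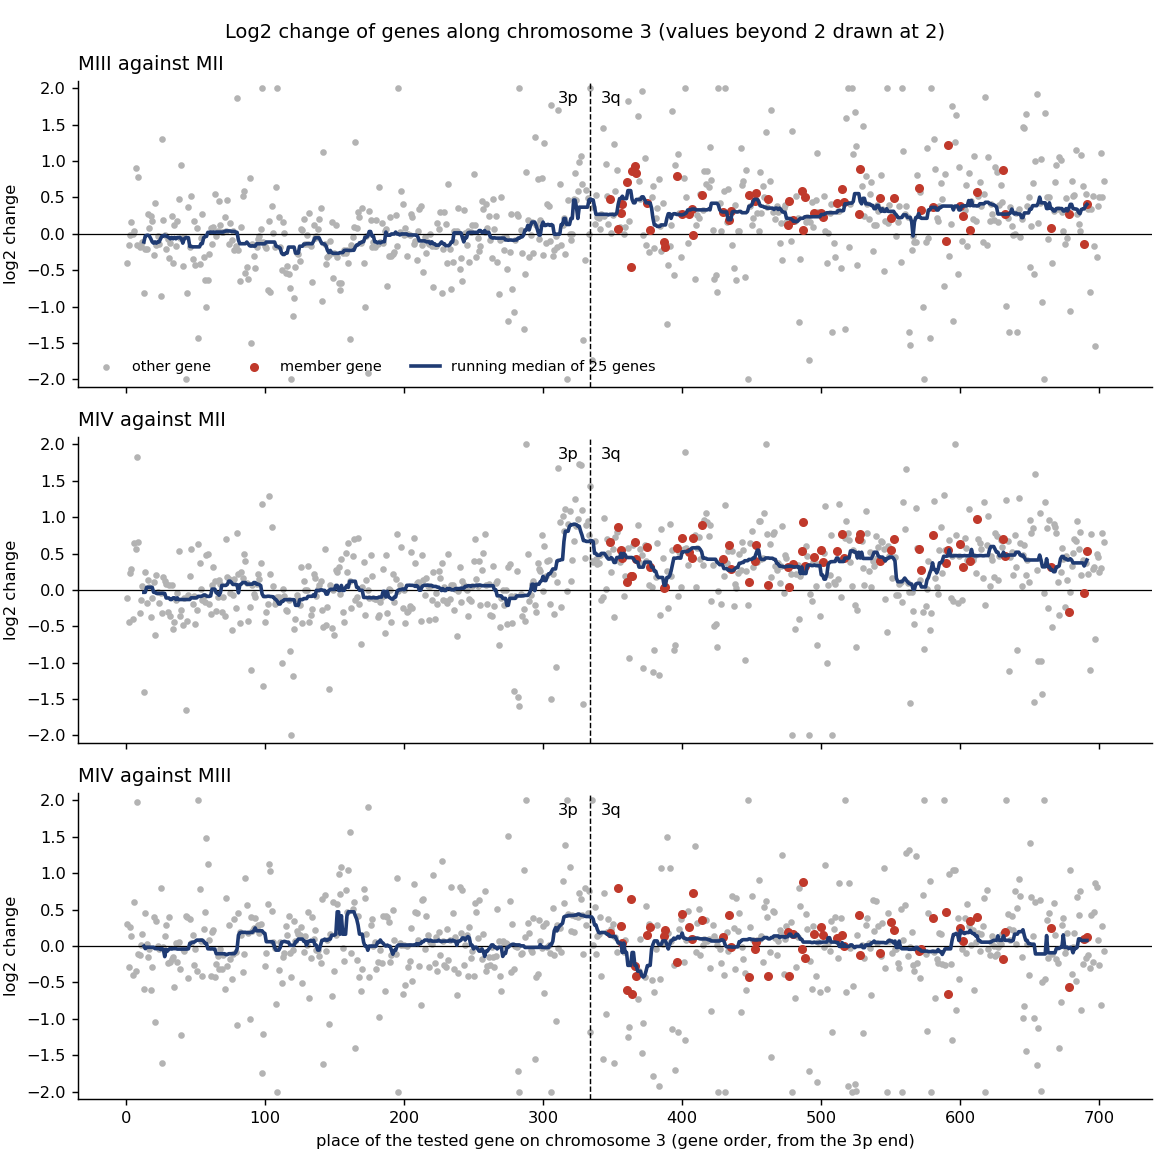
Log2 change of every tested gene of chromosome 3 in gene order (horizontal axis; values beyond 2 drawn at 2) for the 3 comparisons, with listed genes in red, other genes in grey, the running median of 25 genes in blue and the centromere as a dashed line. Against MII the running median, listed genes included, lies near 0 over most of 3p and is raised along 3q. Its dips include the window from C3orf52 to GSK3B (0.12 and 0.06).

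Set beside whole chromosomes, which were not split into arms, the 3q medians were exceeded in MIII by chromosome 12 alone. Chromosome 3 as a whole had medians of 0.14 in MIII and 0.19 in MIV. The medians of the other 22 chromosomes ran from -0.11 (chromosome 16) to 0.41 (chromosome 12) in MIII, where the next highest was 0.00. In MIV they ran from -0.20 (chromosome 19) to 0.26 (chromosome 10), below both 3q sets. Chromosome 10 in MIV was above chromosome 3 as a whole.

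**Figure D5:**
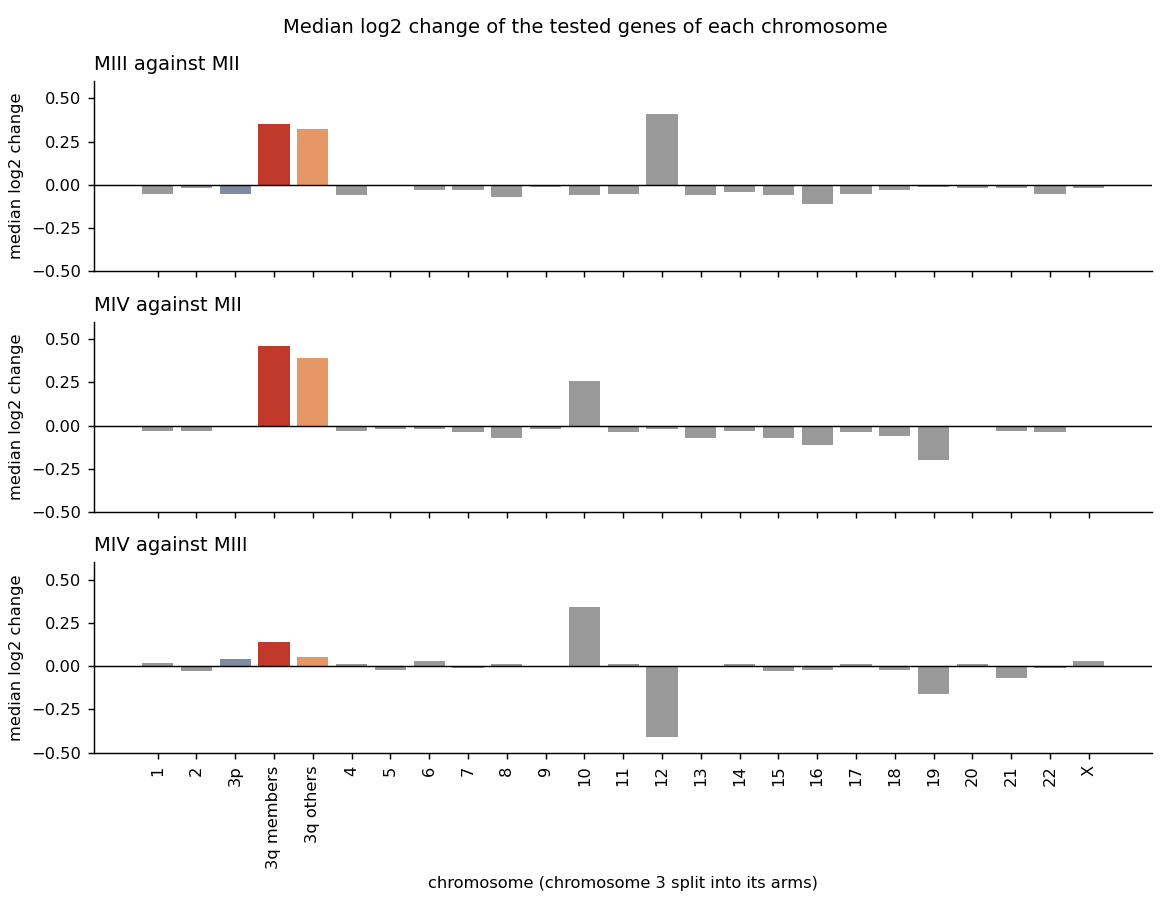
Median log2 change of the tested genes of each chromosome, with chromosome 3 split into 3p, the listed 3q genes and the other 3q genes, in the 3 comparisons (bars start at 0). The 3q bars (0.35 and 0.32 in MIII, 0.46 and 0.39 in MIV) stand above all other bars of the comparisons with MII except chromosome 12 in MIII (0.41). The other chromosomes are drawn whole.

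Unlisted 3q genes included changes far larger than any in the list. FSTL1, a secreted glycoprotein, averaged 329 on the MII arrays, 3101 on the MIII arrays and 1264 on the MIV arrays, and rose by 3.18 and 1.89. PROS1, the anticoagulant protein S, averaged 29.2 in MII, under 69.3, the median signal pooled over all probe sets and arrays, so no size of change is given. It averaged 267 on the MIII arrays and 107 on the MIV arrays. The linker histone gene H1-10 rose by 1.40 and 2.03, and PLD1, a phospholipase, by 1.26 and 2.30. SERPINI1 rose by 1.30 and 1.23, and IL1RAP, a co-receptor for interleukin-1, by 1.66 and 1.21. The limma adjusted p for the 5 genes with a size given lay at or below 3.72e-06 in both comparisons.

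Several unlisted 3q genes went down. IL20RB, a receptor chain for interleukins of the IL-20 family, changed by -1.74 in MIII and by -3.46 in MIV. PXYLP1 changed by -1.35 and -2.53, and ARL14 by -3.54 and -0.82. MGLL, which hydrolyses monoacylglycerols, fell by 2.80 in MIII and gave -0.20 ± 0.09 in MIV. CLDN1, a tight junction protein, fell by 2.32 in MIII and gave -0.04 ± 0.06 in MIV. SLCO2A1, a prostaglandin transporter, rose by 1.42 in MIII, and on the MIV arrays it averaged 16.2, under the pooled median, from 111 on the MII arrays.

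A list of 50 other 3q genes with roles in epithelia or cancer had 44 tested genes, with medians of 0.41 in MIII and 0.41 in MIV. The calls were 30 higher and 6 lower in MIII (68.2% and 13.6%, background 22.9% and 24.3%). In MIV they were 27 and 5 (61.4% and 11.4%, background 20.0% and 22.2%). In MIV against MIII they were 14 and 14 (31.8% each, background 25.3% and 26.6%). Of the most changed genes in the list, several averaged under the pooled median in a line, so their signals are given in place of a fold. HEG1, a transmembrane mucin-like protein, averaged 58.4 in MII, 1098 in MIII and 154 in MIV, and it fell by 2.70 in MIV against MIII. The membrane peptidase MME averaged 421 in MIII and lay under the pooled median on every MII and MIV array. The myosin kinase MYLK averaged 381 in MIII, with means of 57.9 in MII and 58.2 in MIV. CLDN1 rose by 2.29 in MIV against MIII. RARRES1 fell by 1.55 in MIV against MII.

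Several of the listed genes encode parts of complexes whose other subunits lie elsewhere in the genome, and 65 such partner genes were tested. Their medians were 0.04 in MIII, -0.07 in MIV and -0.13 in MIV against MIII. In MIII 23 were called higher and 12 lower (35.4% and 18.5%, background 22.9% and 24.3%). In MIV the calls were 7 higher and 19 lower (10.8% and 29.2%, background 20.0% and 22.2%). In MIV against MIII they were 8 higher and 28 lower (12.3% and 43.1%, background 25.3% and 26.6%). The same background applies to each partner group below. For PSMD2, 12 other 19S proteasome genes gave 8 called higher and 1 lower in MIII (median 0.21), and 0 higher and 3 lower in MIV (median -0.04). PSMC4 had the largest change of these, falling by 0.87 in MIV against MIII (limma adjusted p = 1.74e-08). For SEC61A1, SRPRB, SSR3 and RPN1, 10 partners gave 5 higher and 0 lower in MIII, and 1 higher and 5 lower in MIV. SSR1 had the largest change among these partners and fell by 0.67 in MIV against MIII.

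The other partner groups were small. Of 6 proton pump subunits, 0 were higher and 2 were lower in MIII, and 0 were higher and 3 lower in MIV, and ATP6V0D1 fell by 0.50 in MIII. Of 5 PI3-kinase subunits, 1 was higher and 1 lower in MIII, and 0 were higher and 3 lower in MIV. PIK3R1, the regulatory subunit p85-alpha, was the one that rose in MIII (by 1.64), and it fell by 0.61 in MIV. Of 7 ATR pathway genes, 1 was higher and 3 lower in MIII (median -0.16), and 1 was higher and 2 lower in MIV. The gene that rose in MIII was TIMELESS, a replication fork protein, by 0.87, and it fell by 1.11 in MIV against MIII. Of 5 importins, 2 were higher and 1 lower in MIII and 1 was higher and 1 lower in MIV, with KPNA5 rising by 0.41 in MIII. Of 4 initiation and cap-binding factors, 1 was higher and 2 were lower in MIII, and 0 were higher and 1 lower in MIV. NCBP1, the partner of NCBP2, fell by 0.37 in MIII.

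Condensin and cohesin partners of SMC4 and STAG1 numbered 8, with 3 called higher and 0 lower in each line. The condensin subunit NCAPD2 rose by 1.14 in MIII and by 0.59 in MIV. Of 8 BAF and NCoR subunits, 2 were higher and 2 lower in MIII and 1 was higher and 1 lower in MIV, and SMARCD2 fell by 0.91 in MIII.

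Marker genes differed between the lines as well. The summed signal of 7 epithelial markers was 109312 to 114499 in MII, 65750 to 66860 in MIII and 108210 to 118369 in MIV, and KRT19 lay under the pooled median of 69.3 on all arrays. The sum of 7 fibroblast markers was 422 to 458 in MII, 4523 to 4792 in MIII and 402 to 437 in MIV, and COL1A2 and PDGFRB were under the pooled median in every line. For 5 leukocyte and endothelial markers the sum ran from 214 to 453, with PTPRC, VWF and CDH5 under the median throughout. Of 6 tested epithelial markers, 0 were called higher and 5 lower in MIII. There the values were -3.19 for CDH1, -2.20 for EPCAM, -1.16 for KRT14, -0.75 for KRT8, -0.65 for KRT18 and 0.03 for KRT5. In MIV 2 were called higher and 2 lower. The values in MIV were -3.82 for KRT14, -0.72 for CDH1, -0.04 for KRT5, 0.12 for EPCAM, 0.22 for KRT8 and 0.23 for KRT18. CDH1 was higher in MIV than in MIII by 2.47. The part of these marker differences in the values of the listed genes was not tested.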

How the data were processed

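Total RNA of 3 lines was measured on Affymetrix arrays, 3 arrays per line. The values deposited by the authors are linear intensity values, made with MAS5 per the submitters' processing notes (1 signal per probe set); its version is not given in the sources used here. Over the middle 96% of values, each array averaged 499 to 499.9. The table held 54675 probe sets, 62 of them controls; the platform annotation lists 1 gene for 41091, several for 1801 and none for 11721. Matching by gene number to RefSeq (GRCh38.p14) gave gene order, for 41037 probe sets.

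Signals were analysed as log2(signal + 18.3), the pooled 25th percentile. Genes needed a signal above the pooled median of 69.3 on at least 3 of 9 arrays, leaving 12594 of 19775. The 9 arrays entered 1 fit with a mean per line, using limma 3.58.1 under R 4.3.3 with a trended variance prior, Benjamini-Hochberg adjustment over all tested genes and a check on simulated data. Calls need an adjusted p under 0.05. Errors of log2 changes are limma standard errors. An exact permutation test of 3 arrays against 3 cannot give p under 0.1. The arm boundary was set at PROS1. The members, gene lists and partner lists were chosen with earlier results of these data known. Array values are given for the 8 largest and 5 lowest smaller-of-both changes, the 4 largest rises and falls in MIV against MIII, and 8 further genes chosen for their roles. Among other 3q genes the 6 highest and 6 lowest smaller-of-both changes are named, with up to 4 called genes per comparison of the 3q list and the most changed partner of each complex. Replicate numbers did not pair the arrays: deviations of same-numbered arrays correlated at -0.0392 to 0.0393. Alternatives covered scaling, offset, filter, probe set choice, thresholds, variance prior, the replicate block and leaving out each array.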

Additional observations from a re-analysis of the deposited data

Results flagged for a closer look

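ALCAM and TFRC moved in opposite directions in the 2 carcinoma lines relative to MII on every array. For ALCAM the 3 MIII arrays lay below and the 3 MIV arrays above all MII arrays, and MIV against MIII gave 0.65 ± 0.05 (limma adjusted p = 1.2e-07). For TFRC the MIII arrays lay above and the MIV arrays below, and MIV against MIII gave -0.57 ± 0.06 (limma adjusted p = 1.59e-06). With all probe sets of a gene averaged, ALCAM kept its directions and calls (-0.40 in MIII and 0.40 in MIV against MII). The rise in MIV was not shared by the other bright ALCAM probe set, which gave -0.55 in MIII and 0.05 in MIV, the latter not called. A dim ALCAM probe set gave -0.18 in MIII, not called, and 0.96 in MIV, which was called. With its probe sets averaged, TFRC lost all 3 calls, with 0.05 in MIII, -0.23 in MIV and -0.28 in MIV against MIII (limma adjusted p = 0.0782 for the last). That average takes in TFRC probe sets that did not pass the signal filter. The second bright TFRC probe set was called in all 3 comparisons in the directions of the chosen one (0.39, -0.34 and -0.73). A dimmer one gave 0.04, not called, and was called lower in MIV than in MII (-0.45) and MIII (-0.49).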

How the results depend on the processing

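Signal over background limits the dim genes most, and 9 arrays limit the precision of all. Of 3960 values for single genes of the list under the alternatives, 3830 kept their direction and side of the threshold, 93 lost the call, 29 gained it and 8 reversed. With arrays centred on the median of tested genes, the list's median became 0.39 in MIII and 0.50 in MIV against MII, and centred on genes outside chromosome 3 it became 0.39 and 0.52. In MIV against MIII it was 0.10 after cyclic loess and 0.11 after quantile normalization. Averaging all probe sets gave 0.30, 0.40 and 0.06 in the 3 comparisons, 5 partners called higher in MIV against MIII, and reversed ECT2 (-0.05), GMPS (-0.31) and PCCB (-0.04) there. For ECT2 and PCCB that average takes in a probe set that did not pass the signal filter. Using probe sets without a cross-hybridisation suffix gave medians of 0.41 in MIII against MII and 0.00 in MIV against MIII. That choice called 31 list genes higher in MIV against MII and 10 in MIV against MIII, and 15, 4 and 4 partners in the 3 comparisons, with 45 of the 58 list genes tested. It reversed UMPS in MIII (-0.01), SSR3 in MIV against MII (-0.07), and ATG3 (-0.22), PCNP (-0.40) and SSR3 (-0.67) in MIV against MIII. The probe sets behind these reversals were dim, with line means from 40.6 (PCNP) to 209 (SSR3). Only the -0.67 of SSR3 was called. Brighter further probe sets gave 0.29 for UMPS in MIII, and 0.23 for PCNP and 0.21 for SSR3 in MIV against MIII. ATG3 had no further one. Under at least 1 alternative a call was lost by 20 list genes in MIII against MII, 18 in MIV against MII and 20 in MIV against MIII. The cause was not tested for the scaling and probe set choices.

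With a 2-fold minimum, higher calls in the 3 comparisons were 1, 0 and 0 for the list (0 lower in MIV against MIII), 48, 22 and 20 for other 3q genes, and 2, 0 and 0 for partners. At an adjusted p under 0.01, 15 partners were called higher in MIII against MII. Leaving out each array in turn gave list medians of 0.34 to 0.37, 0.46 to 0.49 and 0.10 to 0.16, and 42 to 45, 47 to 50 and 21 to 25 list genes called higher. Calls lost on leaving out an array were those of ATP6V1A, DBR1, SNX4 and UMPS in MIII against MII, KPNA4 and SENP7 in MIV against MII, and PIK3CB, PSMD2, SENP7 and TOPBP1 in MIV against MIII. With the replicate block, the list medians were 0.35, 0.46 and 0.14, and 44, 49 and 24 list genes were called higher.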

Other observations

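Genes of 3p next to the centromere, which are not in the list, were also higher in MIV, and those nearest to it in MIII too. The 12 tested 3p genes from SHQ1 to C3orf38 had medians of 0.54 in MIII and 0.92 in MIV against MII. Of the 12, 9 were called higher in MIII and 11 in MIV, where 22.9% and 20.0% of all tested genes were. The next 12, from SUCLG2 to RYBP, had medians of -0.01 in MIII and 0.85 in MIV, with 4 called higher in MIII and 8 in MIV. From KCTD6 to KBTBD8 the medians were 0.08 and 0.20. Farther along 3p, the 12 genes from ARHGEF3 to PDHB had medians of 0.05 and 0.00. In MIV against MIII the blocks nearest the centromere had medians of 0.42 and 0.43.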
